A study of Mus musculus with 13 samples.

Results

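Forkhead transcription factors were examined in female mouse embryonic stem cells (mESCs) as they left the pluripotent state, with and without depletion of Smarcc1. A gene was taken as a forkhead gene when its symbol began with Fox, a letter from a to s and a digit, which gave 42 genes of the 25965 in the table after 1 matching gene was left out by the rule. Of these, 21 averaged a log2 CPM (read counts scaled to the mapped reads of the library, on a log2 scale) of 0 or more across the 12 differentiating libraries, days 4 to 7, and were tested with the other genes past that mean, 13406 in all. The other 21 lay below it. The last gene inside was Foxa3, with a mean of 0.50, and the first outside was Foxn4, with a mean of -0.29.

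The cells came from an FVB/NJ mother and a CAST/EiJ father, and each of the 13 libraries was 1 RNA-seq library. Day0 was 1 library of undifferentiated cells grown in 2i and LIF, which had received no hairpin. The other 12 cultures were moved stepwise to serum medium, were transduced with an shRNA retrovirus on day 2, were selected with puromycin from day 3 and were collected on days 4, 5, 6 and 7, 1 library per day with each of a nonsilencing hairpin (Nons), Smarcc1.6 and Smarcc1.7. The days serve as the replicates of a group, so no p-value measures the spread between repeat cultures of 1 day. For the comparisons with Nons, which pair the libraries of 1 day, a p-value measures how the differences vary between days. For knockdown it also takes in the spread between the 2 hairpins, which share each Nons library. For the change per day it measures the scatter of the libraries about a straight line. The libraries of 1 day count there as separate points, although they can share a deviation, so these p-values may be too small. The knockdown is a partial one in a bulk population.

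Forkhead proteins share a winged-helix DNA binding domain and are named by subfamily, from FoxA to FoxS. FoxO factors are held out of the nucleus by insulin and PI3K-AKT signalling, Foxh1 brings Smad2 and Smad3 to Nodal and Activin target genes, Foxm1 drives genes of mitosis, and Foxd3 acts in pluripotent cells and the neural crest. Other subfamilies mark lineages that appear later, such as FoxA in endoderm, FoxC and FoxF in mesoderm, Foxb1 in the brain and Foxj1 in cells with motile cilia. The protein made from Smarcc1 is part of the core of BAF, a complex that moves nucleosomes.

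Both hairpins target the coding sequence of Smarcc1, and the sites are shown because every comparison with Nons rests on them. In each 22-base site the capitals mark the bases that pair with positions 2 to 8 of the guide strand. The first lies in exon 13 of Smarcc1 at chr9:110177472-110177493 and the second in exon 11 at chr9:110173911-110173932, both on the plus strand of GRCm38 as annotated by GENCODE M21.
Smarcc1.6: gcaggatgaagaagCAGTTACa
Smarcc1.7: tcagaaggaagaagATGAGCAa

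The log2 CPM of Smarcc1 itself from day 4 to day 7 was 9.10, 8.87, 8.28 and 7.89 in Nons. The Smarcc1.6 libraries took 7.42, 7.40, 7.28 and 7.28, and the Smarcc1.7 libraries 7.96, 7.78, 7.17 and 7.51. It fell by 1.06 ± 0.14 (SE) with knockdown in limma (adjusted p = 0.00232), and was lower than the same-day Nons library on all 4 days with each hairpin.

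The shallowest library, day 5 of Smarcc1.7, had 13993440 mapped reads and the deepest, day 4 of Smarcc1.6, had 63548092, so that 3 reads of a gene correspond to a log2 CPM between -4.40 and -2.22. Day0 and the 3 libraries of day 6 stood apart from the rest, with 85.3% to 86.5% of mapped reads in genes against 91.6% to 92.6% in the other 9. A day 6 value 1 log2 unit or more away from days 5 and 7 in all 3 groups was found for 559 of the tested genes (4.17%) and for 0 of the 21 forkhead genes. Results without day 6 are given for the forkhead genes called for knockdown or time, and as counts for the other comparisons. Fits of genes not called, the gene lists and the 21 genes below the mean include day 6 throughout. The undifferentiated cells carried the markers of mESCs at Day0, with a summed level of 5284 CPM over 8 genes, against 1109 to 1757 CPM in Nons, 1388 to 2703 with Smarcc1.6 and 1122 to 2232 with Smarcc1.7. These are bulk libraries, in which fewer cells of a type and less RNA per cell cannot be told apart.

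The tested genes held all 4 FoxO genes, both FoxK genes, all 3 FoxJ genes, 3 of 4 FoxP genes and 4 of 5 genes of FoxN and FoxR, together with Foxd3, Foxh1, Foxi3, Foxm1 and Foxa3. The genes below the mean were mostly ones known from lineages that appear later. Levels between genes were compared per kilobase of exon, on the mean over the 12 libraries. By that measure Foxh1 (5.60, log2 CPM per kb) and Foxo4 (5.34) led, followed by Foxk2 (3.77), Foxm1 (3.48), Foxi3 (3.48), Foxo3 (3.27) and Foxp4 (3.15). The lowest tested genes were Foxo6 (-0.45) and Foxa3 (-0.53).

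**Figure D1:**
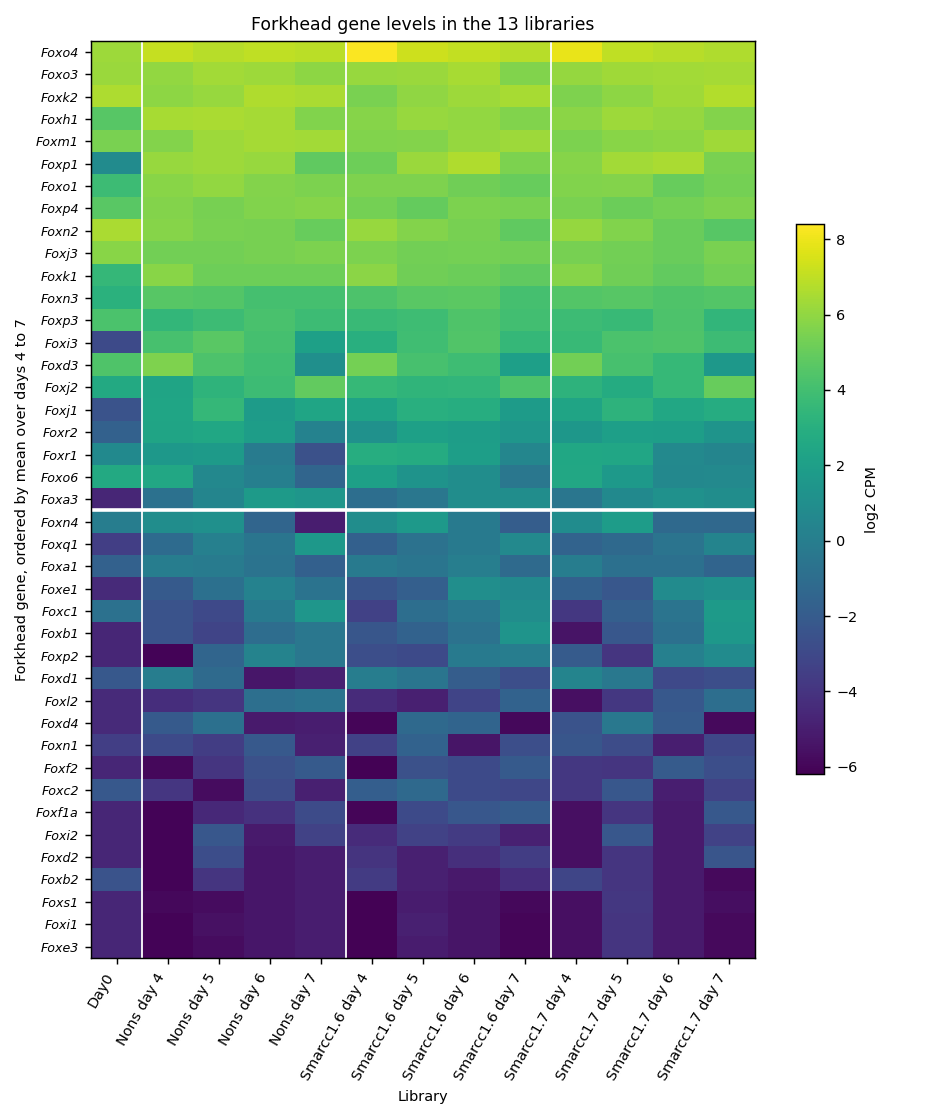
Level of the forkhead genes (log2 CPM, colour scale) in the 13 libraries, with genes ordered by their mean over days 4 to 7. The horizontal white line separates the 21 tested genes from those below a mean of 0, and vertical white lines separate the groups. Foxo4 with Smarcc1.6 on day 4 is the highest value (8.32), and Foxi3, Foxp1, Foxj1 and Foxa3 are lower at Day0 than in any later library.

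The exit from the undifferentiated state was described first by setting Day0 beside the 12 later libraries. Day0 is 1 library without a control of its own, so no test was made. The mean that admitted a gene was taken over days 4 to 7 and not over Day0, which favours genes that are low at Day0, here and over all tested genes, so the counts are a description. Of the 21 tested genes, 12 were lower at Day0 than in each of the 12 later libraries, against 24.2% of all tested genes, and 3 were higher than in each of them, against 18.6%. The 12 were Foxo1, Foxo4, Foxk1, Foxp1, Foxp4, Foxi3, Foxm1, Foxa3, Foxj1, Foxn3, Foxh1 and Foxr2, and the 3 were Foxj3, Foxo6 and Foxn2. Day0 and day 6 share the lower share of reads in genes, and the same count of 12 was found after each library was centred on its median.

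The widest gap was in Foxi3, a regulator of placodes and the ear, with a log2 CPM of -2.89 at Day0 (3 reads) and 4.18 in Nons on day 4. Foxp1, a FoxP repressor with an isoform known from mESCs, was at 0.84 at Day0 and at 6.14 in Nons on day 4. Foxj1, the master regulator of motile cilia, was at -2.48 at Day0 and at 2.40 in Nons on day 4. All 3 stayed well above Day0 to day 7 in every group. Foxr2, an X-linked gene known as an oncogene in brain tumours, was at -1.67 at Day0 and between 0.28 and 2.50 afterwards. Foxa3, an endoderm and liver factor, had no reads at Day0 and reached 1.47 in Nons on day 7. Among the FoxO and FoxK genes, Foxo1 stood at 3.80 at Day0 and 5.81 in Nons on day 4, and Foxk1 at 3.54 and 5.79, whereas Foxo3 (6.23 and 6.05) was almost level.

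The time course asked which forkhead genes changed from day 4 to day 7. In limma with group as a covariate, 11 of the 21 changed at an adjusted p under 0.05, 4 rising and 7 falling. Over all tested genes 34.9% rose and 25.6% fell. The median change of all 21 forkhead genes, called or not, was -0.11 log2 units per day against 0.04 over all tested genes. Without day 7 that median was 0.03 against 0.08, so the lean towards falls rests on day 7. In that fit 6 of the 21 rose and 6 fell, against 4881 and 3138 of the 13406 tested genes. Each of the 11 stayed past the threshold when day 6 was left out, with adjusted p-values from 1.84e-05 to 0.0180. After each library was centred on its median, 4 rose and 9 fell.

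Foxd3, which acts in pluripotent cells and later in the neural crest, fell most. Its log2 CPM was 5.56, 4.31, 3.90 and 1.06 in Nons on days 4 to 7, 5.33, 4.14, 3.87 and 2.04 with Smarcc1.6, and 5.28, 4.18, 3.56 and 1.61 with Smarcc1.7. The level was highest on day 4 and lowest on day 7 in all 3 groups, and every group on day 7 lay below the Day0 value of 4.35. The change was -1.19 ± 0.12 (SE) per day (limma adjusted p = 1.93e-05). In Nons alone, where each day is 1 library, the limma adjusted p was 0.0381.

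Foxo6, a FoxO gene best known from the brain, took 2.57, 0.61, 0.11 and -1.43 in Nons, 2.09, 1.33, 0.97 and -0.42 with Smarcc1.6, and 2.54, 1.62, 0.62 and 0.66 with Smarcc1.7. It changed by -0.90 ± 0.12 per day (limma adjusted p = 9.94e-05), with both hairpins above Nons on days 5, 6 and 7 and below it on day 4. Foxr1, a family member known mainly from oocytes and early embryos, changed by -1.01 ± 0.17 per day (limma adjusted p = 0.000472), and its values are given with the knockdown. Foxn2, a FoxN gene of little described function, took 5.76, 5.45, 5.38 and 5.00 in Nons, 6.15, 5.70, 5.38 and 4.86 with Smarcc1.6, and 6.11, 5.65, 5.09 and 4.60 with Smarcc1.7. Its level dropped on each day in every group, from a Day0 value of 6.54, by 0.39 ± 0.04 per day (limma adjusted p = 3.14e-05).

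Foxo4, an X-linked FoxO gene, was the highest forkhead gene on the log2 CPM scale. It took 7.13, 6.83, 7.01 and 6.89 in Nons, 8.32, 7.30, 7.05 and 6.81 with Smarcc1.6, and 7.90, 6.97, 6.86 and 6.65 with Smarcc1.7. The change was -0.31 ± 0.08 per day (limma adjusted p = 0.00608). It was not past the threshold in Nons alone (adjusted p = 0.645), where the level moved by -0.23 from day 4 to day 7. The median change per day over the 507 tested X-linked genes was -0.10, against 0.04 over the 12886 autosomal genes. The other X-linked forkhead genes, Foxp3 (0.08 ± 0.08 per day) and Foxr2 (-0.23 ± 0.15 per day), had adjusted p-values of 0.418 and 0.215. Foxp3 defines regulatory T cells and is read here through 4577 exonic bases, of which 18.6% overlap the noncoding gene Flicr on the same strand, whose reads cannot be told apart there. It also overlaps genes on the opposite strand, and the strand setting of the counting was not given in the sources used here.

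Foxk1, a repressor of starvation-response genes, was at 5.79, 5.15, 5.19 and 5.18 in Nons, 5.88, 5.26, 5.13 and 4.83 with Smarcc1.6, and 5.74, 5.25, 4.90 and 5.29 with Smarcc1.7. The change was -0.23 ± 0.06 per day (limma adjusted p = 0.00683). The widest step was from day 4 to day 5 in each group, and without day 4 the change was -0.06 with an adjusted p of 0.531. Foxo1 changed by -0.16 ± 0.05 per day (limma adjusted p = 0.0130).

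Of the 4 genes that rose, Foxa3 moved most. It took -0.77, 0.46, 1.76 and 1.47 in Nons, -0.90, -0.40, 0.97 and 0.96 with Smarcc1.6, and -0.49, 0.72, 1.20 and 0.98 with Smarcc1.7, and rose by 0.66 ± 0.12 per day (limma adjusted p = 0.000894). Day 4 was the lowest day in each group. Foxj2, a broadly expressed activator, took 2.33, 3.31, 3.81 and 4.87 in Nons, 3.57, 3.34, 3.43 and 4.30 with Smarcc1.6, and 3.25, 2.81, 3.57 and 5.03 with Smarcc1.7. It rose by 0.55 ± 0.12 per day (limma adjusted p = 0.00263), day 7 was highest in all 3 groups, and without day 7 the adjusted p was 0.165. Foxk2, a paralogue of Foxk1, took 5.93, 6.13, 6.65 and 6.55 in Nons, 5.48, 5.95, 6.27 and 6.47 with Smarcc1.6, and 5.60, 5.90, 6.31 and 6.74 with Smarcc1.7. Its rise of 0.32 ± 0.04 per day (limma adjusted p = 4.14e-05) ran opposite to the change of Foxk1. Foxm1 rose by 0.24 ± 0.04 per day (limma adjusted p = 0.000236).

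The remaining 10 tested genes did not pass. Their changes per day ran from -0.23 (Foxr2) to 0.08 (Foxp3), with Foxj3, a broadly expressed FoxJ gene, at 0.01 ± 0.04. For Foxp1 and Foxi3 a single slope is a poor summary, because both were higher on days 5 and 6 than on day 7 in every group. Without day 7, Foxp1 rose by 0.39 per day (limma adjusted p = 0.0302) and Foxo3, the FoxO gene known for quiescence, by 0.13 (limma adjusted p = 0.0242), against changes of -0.11 and -0.02 with all days. Foxn3, a checkpoint gene, changed by -0.10 ± 0.06 per day, with an adjusted p of 0.156.

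**Figure D2:**
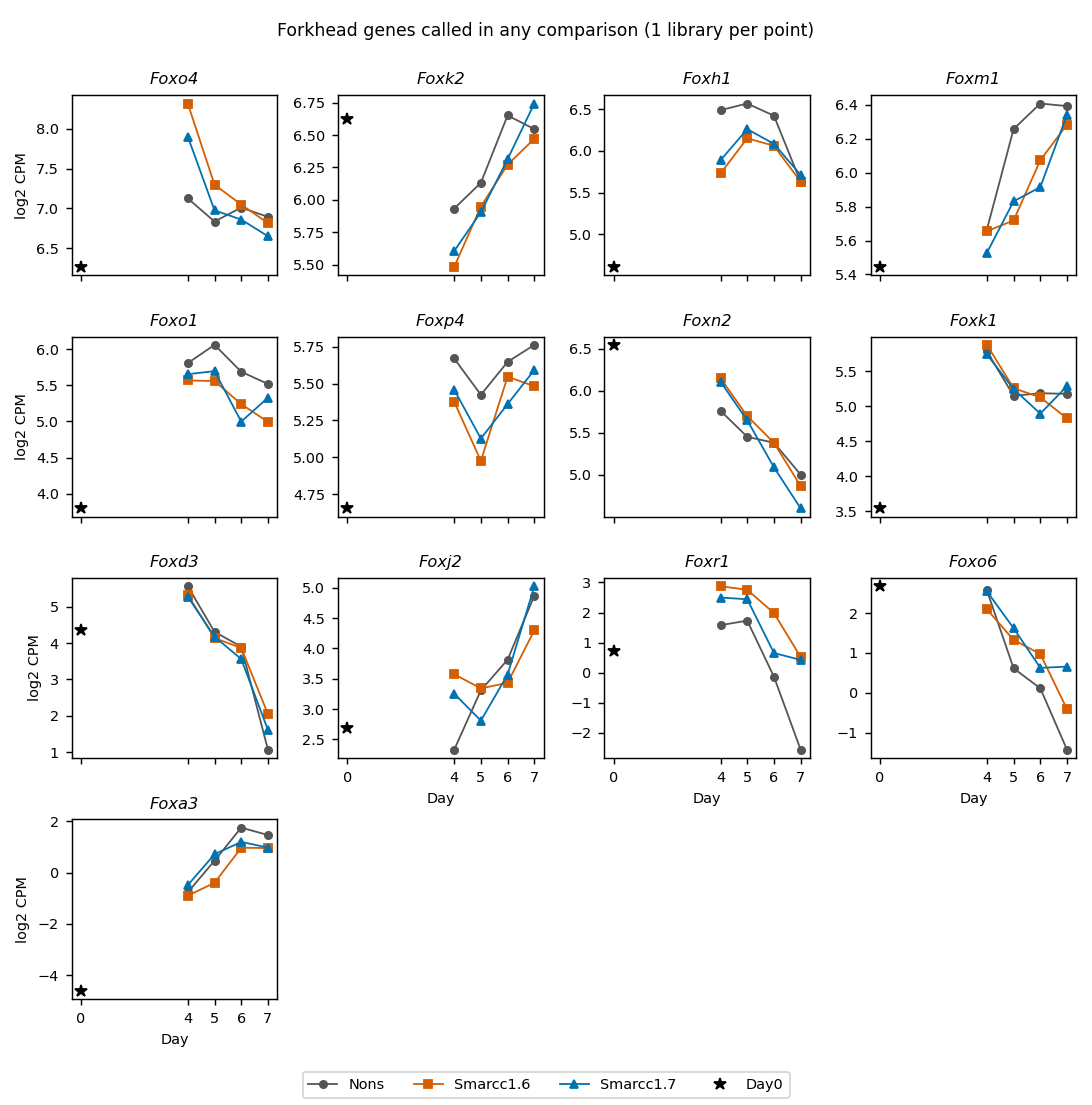
Log2 CPM against day for the 13 forkhead genes called in any comparison, with Nons as grey circles, Smarcc1.6 as orange squares, Smarcc1.7 as blue triangles and Day0 as a black star, 1 library per point and with a vertical scale of its own for each gene. Foxd3 falls from above 5 on day 4 to 2.04 or less on day 7 in each group, and Foxr1 lies above Nons with both hairpins on every day.

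The comparison of main interest asked which forkhead genes responded to depletion of Smarcc1. In limma with day as a factor, 5 of the 21 differed between knockdown and Nons at an adjusted p under 0.05. Foxr1 was higher, 1 of 21 against 6.88% of all tested genes, and Foxo1, Foxp4, Foxh1 and Foxm1 were lower, 4 of 21 against 4.77%. The median difference over the 21 was 0.04, against -0.01 over all tested genes. The 4 falls were small and each was lost when day 5 or day 6 was left out, when 1 forkhead gene, Foxr1, was called in either case. Most calls over all tested genes were lost as well. They went from 922 up and 639 down to 279 and 107 without day 5, and to 217 and 70 without day 6. Leaving out only the Nons library of day 5, or only that of day 6, also left 1 forkhead gene. Over all tested genes that left 438 up and 173 down, and 436 up and 188 down.

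Foxr1 took 1.58, 1.73, -0.14 and -2.57 in Nons on days 4 to 7. With Smarcc1.6 it took 2.87, 2.76, 1.98 and 0.52, and with Smarcc1.7 it took 2.50, 2.44, 0.65 and 0.42. Both hairpins lay above the same-day Nons library on every day, by 0.71 to 3.09, although the groups overlapped across days. The Nons libraries held 178, 154, 32 and 5 reads of Foxr1, so the widest differences, on day 7, rest on few reads. In that library 3 reads correspond to -3.31. The fitted difference was 1.62 ± 0.33 (SE; limma adjusted p = 0.0120). It was 1.88 ± 0.37 for Smarcc1.6 (adjusted p = 0.0132) and 1.35 ± 0.37 for Smarcc1.7 (adjusted p = 0.0805). Over the fits that left out 1 day or 1 library, the difference ran from 1.14 to 1.87 and the adjusted p from 0.0108 to 0.0488, the last of them without day 6. Being higher in all 8 same-day comparisons was true of 7.89% of all tested genes and, among the 21, of Foxr1 alone.

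Foxo1, the FoxO gene known to act in mESC self-renewal as well as in insulin signalling, took 5.81, 6.06, 5.69 and 5.52 in Nons. It took 5.57, 5.56, 5.24 and 4.99 with Smarcc1.6, and 5.65, 5.70, 5.00 and 5.33 with Smarcc1.7. It was lower than the same-day Nons library in 8 of 8 comparisons and fell by 0.39 ± 0.08 (limma adjusted p = 0.0148). The adjusted p was 0.0906 without day 5 and 0.0928 without day 6, with differences between -0.45 and -0.33 over all the libraries and days left out. An antisense gene overlaps 7.78% of the exonic bases of Foxo1 and may share its reads.

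Foxp4, a FoxP repressor of lung, gut and heart development, took 5.67, 5.42, 5.65 and 5.76 in Nons. It took 5.38, 4.98, 5.55 and 5.48 with Smarcc1.6, and 5.46, 5.13, 5.36 and 5.59 with Smarcc1.7. Again all 8 same-day differences were below 0, and the fitted difference was -0.26 ± 0.06 (limma adjusted p = 0.0238). The adjusted p was 0.133 without day 5 and 0.0794 without day 6, with differences between -0.28 and -0.22 over all the libraries and days left out.

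Foxh1, the Smad partner in Nodal signalling, took 6.49, 6.57, 6.42 and 5.63 in Nons. It took 5.73, 6.15, 6.06 and 5.63 with Smarcc1.6, and 5.89, 6.26, 6.08 and 5.71 with Smarcc1.7. The hairpin libraries were lower on days 4, 5 and 6, by 0.31 to 0.76, and differed from Nons by 0.00 and 0.09 on day 7. The fitted difference was -0.34 ± 0.09 (limma adjusted p = 0.0368), and the adjusted p was 0.163 without day 5 and 0.161 without day 6.

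Foxm1, the mitotic regulator, took 5.66, 6.26, 6.41 and 6.39 in Nons. It took 5.66, 5.72, 6.07 and 6.28 with Smarcc1.6, and 5.53, 5.83, 5.92 and 6.34 with Smarcc1.7. Levels were lower in 8 of 8 comparisons, with the gap widest on days 5 and 6 (-0.33 to -0.54) and no more than 0.14 in size on days 4 and 7. The fitted difference was -0.26 ± 0.08 (limma adjusted p = 0.0488), and the adjusted p was 0.254 without day 5 and 0.236 without day 6. Being lower in all 8 was true of 7.1% of all tested genes and, among the 21, of Foxo1, Foxm1 and Foxp4.

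The next forkhead genes in order of p were Foxk2, with -0.22 ± 0.08 (adjusted p = 0.0857), and Foxo6, with 0.71 ± 0.28 (adjusted p = 0.123), and neither passed. Foxd3, the pluripotency factor that fell most with time, differed by 0.04 ± 0.16 (adjusted p = 0.895). Foxo3, Foxo4 and Foxp1 differed by 0.06 ± 0.11, 0.27 ± 0.16 and 0.13 ± 0.18, and none passed.

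**Figure D3:**
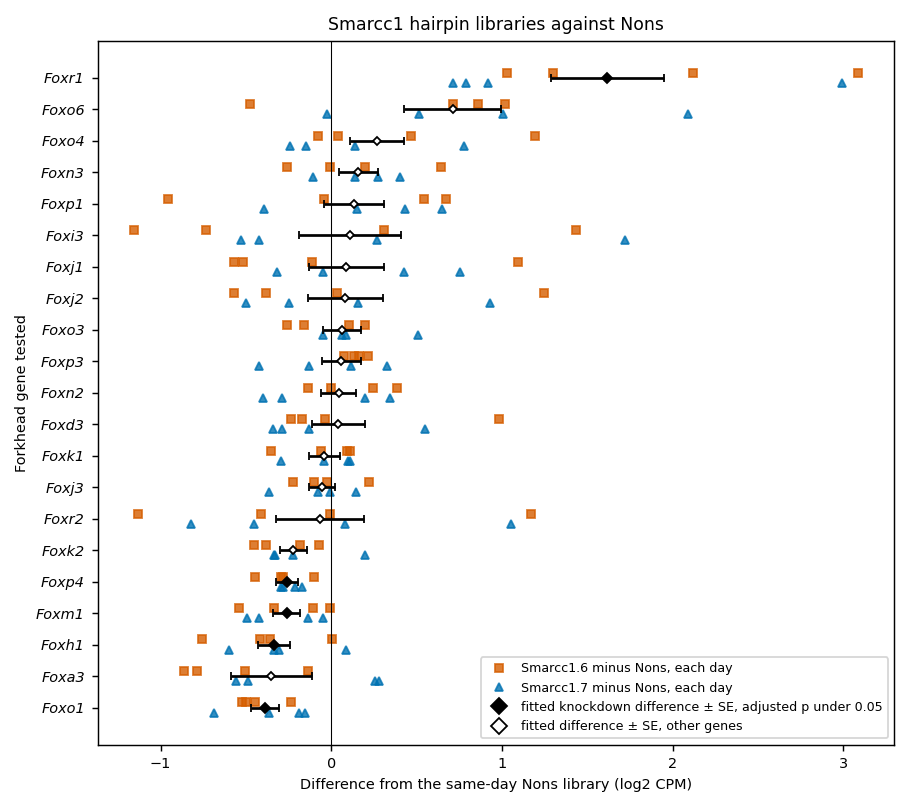
Difference of each hairpin library from the same-day Nons library (log2 CPM) for the 21 tested forkhead genes, with Smarcc1.6 as orange squares and Smarcc1.7 as blue triangles, 4 days each. Diamonds give the fitted knockdown difference ± SE, filled where the limma adjusted p is under 0.05. Foxr1 stands to the right of 0 in all 8 comparisons, and Foxo1, Foxm1 and Foxp4 stand to the left of 0 in all 8.

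The hairpins were then taken one at a time against the same 4 Nons libraries. Smarcc1.6 called 1 forkhead gene higher (Foxr1), against 5.59% of all tested genes, and 3 lower (Foxo1, Foxp4 and Foxh1), against 3.71%. The differences for the last 3 were -0.43 ± 0.10, -0.28 ± 0.08 and -0.38 ± 0.11 (limma adjusted p = 0.0238, 0.0438 and 0.0491). Without day 6 none of the 4 was called, while the calls over all tested genes went from 750 up and 497 down to 134 and 68. Smarcc1.7 called 0 of 21 in limma, against 2.45% of all tested genes, and 0 in voom on recovered reads. At an unadjusted p under 0.05 there were 6 of 21, against 2838 of the 13406 tested genes. Without day 6 Smarcc1.7 called 0, with 4 of 21 at an unadjusted p under 0.05, against 1639 of 13406. For Foxo1, Foxp4, Foxh1 and Foxm1 its differences were -0.35 ± 0.10, -0.24 ± 0.08, -0.29 ± 0.11 and -0.28 ± 0.09. Tested directly against each other, the hairpins differed at 0 of the 21 (0 in voom) and at 0.0% of all tested genes. At an unadjusted p under 0.05 there were 0 of 21, against 530 of the 13406 tested genes. Foxa3 had the smallest p, with a difference of -0.44 ± 0.25 (limma adjusted p = 0.989).

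Whether the response changed with time was tested as the product of knockdown and day. No forkhead gene passed in limma (0 of 21, and 0.0% of all tested genes), and 0 passed in voom. At an unadjusted p under 0.05 there were 5 of 21, Foxn2, Foxo4, Foxr2, Foxi3 and Foxo6, against 5.56% of all tested genes, and their adjusted p-values ran from 0.770 to 0.865. Without the Nons library of day 7, Foxn2 was the 1 gene of the 21 at an unadjusted p under 0.05, against 602 of the 13406 tested genes. Without day 6 there were 6 of 21, against 806 of 13406, with 0 past the adjusted threshold. The values behind them differ by day. Foxo4 was 1.20 and 0.78 above Nons on day 4 and 0.08 and 0.24 below it on day 7, for Smarcc1.6 and Smarcc1.7. Foxi3 took 4.18, 4.67, 4.11 and 2.10 in Nons, 3.02, 3.94, 4.41 and 3.53 with Smarcc1.6, and 3.65, 4.25, 4.37 and 3.82 with Smarcc1.7. It was below Nons on days 4 and 5 and above it on days 6 and 7 with both hairpins. Foxr2 took 2.35, 2.50, 1.93 and 0.28 in Nons, 1.21, 2.09, 1.92 and 1.45 with Smarcc1.6, and 1.52, 2.05, 2.01 and 1.33 with Smarcc1.7.

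Day 7 set the forkhead genes apart most by size, and it is also the day on which Smarcc1 itself lay closest to Nons with each hairpin. Smarcc1 was then at 7.89 in Nons, 7.28 with Smarcc1.6 and 7.51 with Smarcc1.7, against 9.10, 7.42 and 7.96 on day 4. Both hairpin libraries were at least 1 log2 unit above Nons on day 7 for Foxr1, Foxi3, Foxo6 and Foxr2, 4 of 21 against 3.99% of all tested genes, and for 0 of 21 on days 4, 5 and 6, against 1.77%, 2.74% and 3.55%. Both were at least 1 unit below Nons for 0 of 21 on each of days 4 to 7, against 0.821%, 1.41%, 1.49% and 1.01% of all tested genes. The cut of 1 was chosen with these values in view, each day has 1 library per group, and all 4 genes rest on 1 Nons library. In that library the 4 genes had their lowest value of the 12 libraries, with 5 reads for Foxr1, 127 for Foxi3, 11 for Foxo6 and 36 for Foxr2.

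Promoter sequence is shown for Foxo1 and Foxp4, which fell together with knockdown, and for Foxd3, which fell most with time. Each stretch is 200 bases long, ends 50 bases before the RefSeq start of the gene, reads 5′ to 3′ along the gene's own strand in GRCm38.p6 and has CpG dinucleotides in capitals. The coordinates are chr3:52268087-52268286 (plus strand), chr17:47924683-47924882 (minus strand) and chr4:99656049-99656248 (plus strand), and none of the 3 overlaps a GENCODE M21 exon.
Foxo1: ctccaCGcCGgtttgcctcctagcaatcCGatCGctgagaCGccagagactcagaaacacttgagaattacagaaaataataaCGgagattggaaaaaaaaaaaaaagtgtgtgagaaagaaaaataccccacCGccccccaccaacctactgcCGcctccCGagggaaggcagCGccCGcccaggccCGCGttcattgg
Foxp4: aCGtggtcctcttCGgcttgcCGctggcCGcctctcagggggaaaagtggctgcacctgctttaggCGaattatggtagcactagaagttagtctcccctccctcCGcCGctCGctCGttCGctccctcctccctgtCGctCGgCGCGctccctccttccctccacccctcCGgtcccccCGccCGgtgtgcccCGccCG
Foxd3: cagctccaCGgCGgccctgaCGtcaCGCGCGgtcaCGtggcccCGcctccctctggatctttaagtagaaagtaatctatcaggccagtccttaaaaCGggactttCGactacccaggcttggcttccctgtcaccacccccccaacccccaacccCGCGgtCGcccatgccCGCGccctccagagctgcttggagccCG

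The stretches hold 13, 19 and 16 CpG. RefSeq promoters were found for 27 of the 42 forkhead genes, 30 promoters in all, and 24 of these had a higher GC content in the 250 bases before the start than the median of all 32851 promoters (52.4%). The GC content was 56.0% for Foxo1, 69.6% for Foxp4, 65.6% for Foxd3 and 58.4% for Foxr1. The forkhead motif GTAAACA, or TGTTTAC on the other strand, was found in 3.17% of all promoters and in 1 of the 30, that of Foxa1.

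The genes around the forkhead factors were described from lists, beside which stand the shares over all tested genes, 6.88% up and 4.77% down with knockdown and 34.9% up and 25.6% down with time. Of 14 regulators of FoxO activity, 2 fell with knockdown and none rose, Pik3r1, a subunit of PI3K (-0.42 ± 0.08, limma adjusted p = 0.00861), and Irs1, an insulin receptor substrate (-1.72 ± 0.34, limma adjusted p = 0.0103), with a list median of -0.03 against -0.01 over all tested genes. Of 14 tested FoxO target genes, 3 rose and none fell, with a median of 0.23. They were Gadd45a, a stress-response gene (0.73 ± 0.08), Klf2, which is also a naive pluripotency gene (1.04 ± 0.19), and Sod2, a mitochondrial antioxidant enzyme (0.44 ± 0.08), while Foxo1 itself fell. With time 7 of the regulators rose and 5 fell, and 3 of the targets rose and 4 fell.

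Of 9 tested partners and targets of Foxh1, 2 fell with knockdown and none rose (1 called in voom), with a median of -0.19. Eomes, a mesendoderm factor, was 1 of them (-0.92 ± 0.26, limma adjusted p = 0.0440). None of 12 FoxM1 targets was called with knockdown in limma (0 in voom), with a median of 0.02. At an unadjusted p under 0.05 there were 2 of 12, against 3770 of the 13406 tested genes. With time 4 rose and 4 fell, among the first the mitotic cyclin gene Ccnb2 (0.26 ± 0.05 per day).

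Of 8 tested ciliary genes placed under Foxj1, 3 rose with knockdown, Rfx2 (0.73 ± 0.13), Spag6 (1.03 ± 0.19) and Rsph1 (0.51 ± 0.14), with a median of 0.75, and 4 fell with time. Rfx2 is a transcription factor of ciliary genes and the other 2 encode parts of the axoneme. Foxj1 differed by 0.09 ± 0.22 between knockdown and Nons (limma adjusted p = 0.837). It took 2.40, 3.53, 1.79 and 2.39 in Nons, 2.29, 3.01, 2.88 and 1.83 with Smarcc1.6, and 2.35, 3.22, 2.55 and 2.82 with Smarcc1.7, and had no consistent order of the groups.

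Markers of other states moved with the same comparison. With knockdown 6 of 8 markers of undifferentiated mESCs rose and none fell (median 0.88), 3 of 8 tested mesoderm markers fell and 1 rose (median -0.62), 1 of 5 endoderm markers fell (0 called in voom, median -0.36), 3 of 5 neural markers rose (median 0.61) and 2 of 6 markers of fibroblasts and smooth muscle rose although the list median was -0.17. Those with the smallest p were Zfp42, Esrrb, Dppa3 and Sox2 among the mESC markers, Tbx20, Twist1 and T among the mesoderm markers that fell, with Tcf15 rising, Sox17 for endoderm, Otx2, Tubb3 and Sox1 for the neural list, and the collagen gene Col1a2 with Thy1. Of 3 tested markers of motile ciliated cells, 2 rose, 1 of them also in the Foxj1 list. Of 6 trophoblast markers none was called in limma (1 in voom), with 2 at an unadjusted p under 0.05, against 3770 of the 13406 tested genes. The summed mesoderm markers ranged from 54.6 to 274.0 CPM in Nons, 46.2 to 91.2 with Smarcc1.6 and 41.6 to 74.0 with Smarcc1.7. The group medians lay closer together, at 68.967, 57.133 and 49.968 CPM in that order. The 274.0 CPM came from 1 library, Nons on day 7. There T was at 7.49 in log2 CPM, against 0.97 to 5.03 in Nons on days 4 to 6. The part of the marker shifts in the changes of the forkhead genes was not tested.

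Below the mean of 0, 9 forkhead genes reached a log2 CPM of 0 in at least 1 library of days 4 to 7, and 12 did not. Their values carry few reads, and a library with 0 reads is written as 0.9 reads, so the value written for 0 reads depends on depth. Foxe3, with 0 reads in every library, was written 1.01 higher in Nons on day 7 than on day 4. In the limma fit without a filter, which covers all 25965 genes, 8 of the 21 rose and 3 fell with time at an adjusted p under 0.05, against 20.9% and 17.9% of all genes. For knockdown 0 of the 21 were called, against 6.31% of all genes. At an unadjusted p under 0.05 there were 2 of the 21, against 4934 of the 25965, and voom was not run on the 21.

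Foxc1, a factor of paraxial mesoderm and the eye, took -2.44, -2.95, -0.18 and 1.47 in Nons, -3.40, -0.92, -0.36 and 0.93 with Smarcc1.6, and -3.86, -1.81, -0.60 and 1.78 with Smarcc1.7. It rose from 3 to 11 reads on day 4 to 82 to 174 reads on day 7, by 1.54 ± 0.19 per day (limma without a filter, adjusted p = 4.03e-05). Foxc1 lies on chromosome 13 beside Foxq1 and Foxf2, in a cluster known from other vertebrates. Foxq1, which acts in hair and gut, rose by 0.72 ± 0.14 per day (adjusted p = 0.00145) and Foxf2, a factor of gut mesenchyme, by 1.01 ± 0.24 (adjusted p = 0.00430), so that all 3 neighbours rose. Foxf2 had 0 to 14 reads in a library, so values written for 0 reads enter its slope. Of the exonic bases of Foxq1, 66.1% overlap a gene on the opposite strand. The strand setting of the counting was not given, so its reads may include that gene's.

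Foxb1, a factor of the hypothalamus and midbrain, had 22 reads in Nons on day 7 and 152 and 150 with Smarcc1.6 and Smarcc1.7, that is -0.43, 1.37 and 1.56 in log2 CPM. On day 4 the levels were -2.44, -2.29 and -5.44. Foxe1, a thyroid factor, had 19 reads in Nons on day 7 and 99 and 112 with the hairpins (-0.64, 0.75 and 1.14), and on day 5 it had 26, 9 and 3 reads (-0.84, -1.75 and -2.22). Foxp2, a brain FoxP gene, had 22, 59 and 92 reads on day 7 (-0.43, 0.01 and 0.86), and 0, 10 and 11 on day 4 (-6.05, -2.67 and -1.98). All 3 rose with time without a filter (1.42, 0.98 and 1.40 per day, limma adjusted p = 0.000589, 0.00329 and 0.00459), and their differences from Nons had adjusted p-values from 0.836 to 0.851.

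Foxd1, a factor of kidney stroma that is also expressed in early pluripotent cells, and Foxn4, which acts in retina and spinal cord, moved the other way. Foxd1 took -0.04, -1.14, -5.29 and -4.89 in Nons, -0.01, -0.53, -1.90 and -2.70 with Smarcc1.6, and 0.41, -0.35, -2.99 and -2.67 with Smarcc1.7. It was above the same-day Nons library in 8 of 8 comparisons, with 0 reads in Nons on day 6 and 1 on day 7, against 10 and 9 with Smarcc1.6 and 4 and 8 with Smarcc1.7 (adjusted p = 0.0737 for knockdown). Foxn4 took 0.94, 1.14, -1.44 and -5.04 in Nons on days 4 to 7, from 114, 102, 13 and 0 reads. It took 0.95, 1.66, -0.17 and -1.87 with Smarcc1.6, from 123, 96, 33 and 16 reads. With Smarcc1.7 it took 0.90, 1.87, -1.18 and -1.27, from 81, 51, 14 and 21 reads (limma without a filter, adjusted p = 0.130 for knockdown). Per day, Foxd1 and Foxn4 changed by -1.33 ± 0.24 and -1.35 ± 0.28 (limma without a filter, adjusted p = 0.000823 and 0.00189).

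Foxa1, a pioneer factor of endoderm, stayed between -1.72 and 0.07, with a change of -0.40 ± 0.14 per day (adjusted p = 0.0376). Among the 12 genes that never reached 0, Foxl2, a gene of the ovary and eyelid, and Foxf1a, which acts in gut and lung mesenchyme, rose by 1.33 ± 0.21 and 1.05 ± 0.22 per day, from at most 3 reads on day 4 to 19 to 27 reads and 4 to 15 reads on day 7. Foxc2, the neighbour of Foxf1a on chromosome 8, had 0 to 18 reads in every library. Foxd2 and Foxe3, neighbours on chromosome 4, had at most 10 and 0 reads. The others, Foxb2, Foxd4, Foxi1, Foxi2, Foxn1 and Foxs1, had at most 26 reads in a library.

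**Figure D4:**
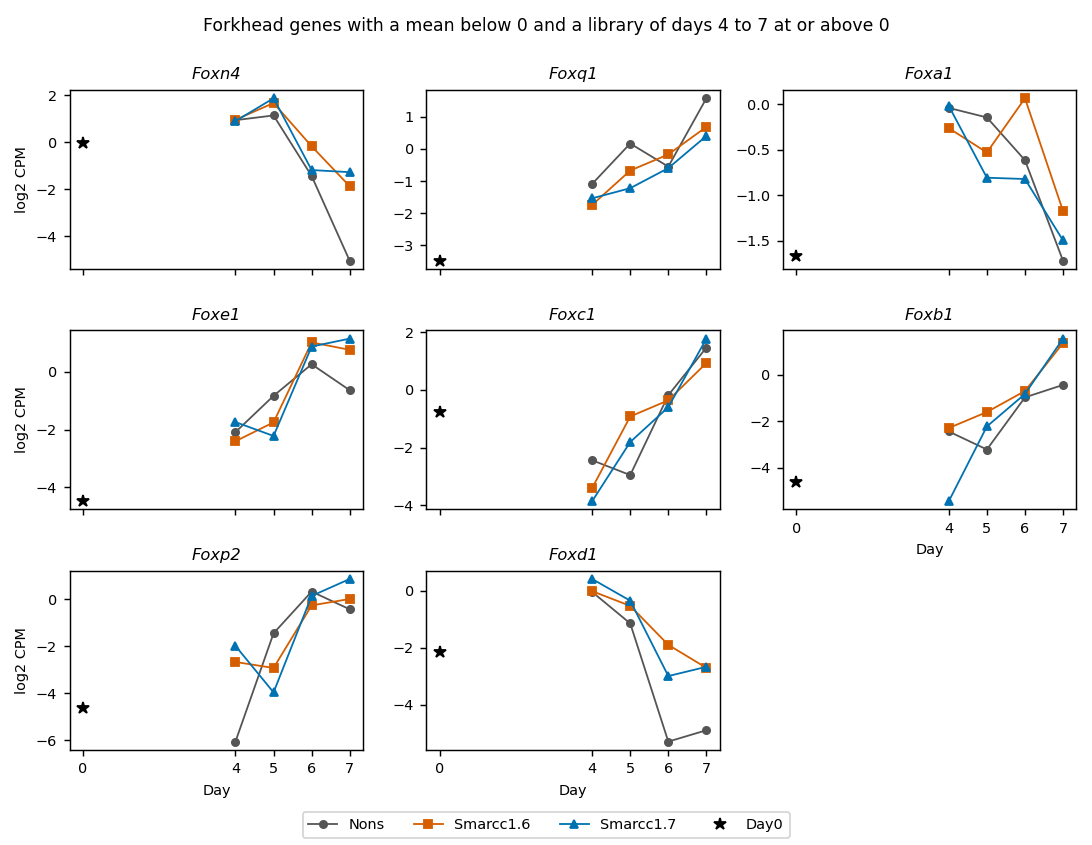
Log2 CPM against day for 8 of the 9 forkhead genes with a mean below 0 that reached 0 in a library of days 4 to 7, drawn as in the plot of the called genes. The value of 3 reads lies between -4.40 and -2.22 depending on the library, so points well above -4 can also rest on 3 reads or fewer. Foxc1, Foxq1, Foxb1, Foxe1 and Foxp2 end higher on day 7 than they began on day 4 in each group, and Foxn4 and Foxd1 end lower.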

How the data were processed

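The forkhead genes, gene lists and tests were chosen with earlier results of these data known. RNA was measured in 13 libraries. The authors made TruSeq libraries and read them as 75-bp pairs (NextSeq500). Adapters were removed by trim_galore, and alignment was to mm10 with strain differences masked, by either hisat2 or tophat (TopHat2 2.0.12 in the submitters' processing notes). Strand setting and annotation release were not given in the sources used here. The deposited values are log2 CPM per gene from Seqmonk, with both alleles together, and the steps between low values gave whole reads in 100% of cases (within 0.02 of a read). Genes with a mean of at least 0 over days 4 to 7 (13406) were fitted with limma 3.58.1 in R 4.3.3 (lmFit, eBayes with trend), with Benjamini-Hochberg adjustment over all of them and a threshold of 0.05. Models had knockdown and day, 3 groups and day, day slope and group, or knockdown by day. The fits were tried on simulated counts of independent libraries, with no variation shared within a day. That tried the code and not the p-values of these data. Reads behind low values were recovered from the steps. Floors of 3 reads cover counting error only. Every forkhead gene with a mean of at least 0 is named, those past the threshold in any comparison with all their values, and those below it where a library reached 0. The values of 1 forkhead gene below the mean and 1 list gene are not reported here. From each list at most 4 genes with the smallest knockdown p were named, and others named for time were chosen after their values were seen. Overlaps and exonic lengths used GENCODE M21 of the same build. The alternatives were other filters, a pseudocount of 1, median centring, no trend, voom on recovered reads, no day factor, single hairpins, and leaving out each day or library. Python 3.11.15, pandas 2.3.3, numpy 2.4.6 and matplotlib 3.10.9 were used.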

Additional observations from a re-analysis of the deposited data

Results flagged for a closer look

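Of 63 groups of 4 libraries (21 tested forkhead genes in 3 groups), 3 had 1 library far from the other 3, where chance flags about 1 in 20 groups. All 3 were in Nons, where the 4 libraries are 4 days, so a step between days counts as a distant library. Foxk1 was highest on day 4, at 5.79 against 5.15 to 5.19 on the other days, a gap of 0.942 of the range. Foxp1 was lowest on day 7, at 4.83 against 6.13 to 6.25, a gap of 0.917 of the range. Foxh1 was lowest on day 7, at 5.63 against 6.42 to 6.57, a gap of 0.844 of the range.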

How the results depend on the processing

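The count of 5 forkhead genes called for knockdown became 3 with a mean of at least 2 or without the trend. It became 0 without day as a factor or with Nons and either Smarcc1.6 or Smarcc1.7 alone. Over all tested genes the fit of Smarcc1.6 and Nons alone called 35 up and 22 down, and that of Smarcc1.7 and Nons alone called 0 and 0. The forkhead count ran from 1 to 6 when 1 day or library was left out. It was 1 without day 5, without day 6 or without the Nons library of either day, and 3 without Smarcc1.6 of day 5 or day 6 or Smarcc1.7 of day 4, 5 or 6. The 4 called for Smarcc1.6 became 2 with a mean of at least 2 or after centring, 1 without the trend and 0 without day as a factor, and ran from 0 to 4 when 1 was left out. The 0 called for Smarcc1.7 became 1 with log2(CPM + 1), and ran from 0 to 3, with 3 without the Nons library of day 4. Without that library the Smarcc1.7 calls over all tested genes were 630 up and 422 down, against 226 and 103 with it. The 11 that changed with day became 22 without a filter, where all 42 genes were fitted, and ran from 11 to 12 when 1 day or library was left out. In Nons alone, which has 4 libraries, they became 3. Over all tested genes that fit called 963 up and 657 down, against 4679 and 3435. The counts for hairpin against hairpin and for knockdown by day stayed at 0. The change per day of Foxp1 reached 0.39 without day 7 and -0.51 without day 4, and that of Foxo3 reached 0.13 and -0.14. The cause of the other shifts was not tested. For the 5 genes called for knockdown, 72 of 124 single-gene alternatives kept the call and 52 lost it. For the 4 called for Smarcc1.6 it was 44 of 91, and for the 11 that changed with day 237 of 250. Few reads limit the 21 genes below the mean of 0. The factor for day pairs the libraries of 1 day, and without it the calls over all tested genes went from 922 up and 639 down to 3 and 1.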
